A study of Mus musculus with 20 samples.

Results

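In RNA-seq of 20 mouse livers, 10 genes that encode acute phase proteins were followed: the serum amyloid A genes *Saa1*, *Saa2*, *Saa3* and *Saa4*, the orosomucoid genes *Orm1* and *Orm2*, haptoglobin (*Hp*), lipocalin 2 (*Lcn2*), C-reactive protein (*Crp*) and serum amyloid P (*Apcs*). They were picked by symbol, and all 10 were present among the 50559 genes of the count table. All mice were homozygous for a floxed *Cideb* allele on the C57BL/6 background. *Cideb* encodes a lipid droplet protein of hepatocytes. WT livers had received AAV-TBG-GFP and KO livers AAV-TBG-Cre, given to young mice by the study's account. The TBG promoter drives Cre in hepatocytes, so other liver cells keep the gene. Mice were fed either a western diet (WD) or CDA-HFD, a choline-deficient diet rich in fat whose protein is replaced by amino acids, with 5 livers in each of the 4 groups. The labels give 3 months for both diets, while the study's text gives a longer time on WD than on CDA-HFD. Cohort and feeding time therefore cannot be told apart from diet. The labels do not give the sex of these mice and do not say whether livers of a group came from separate cages or litters, so p-values measure the spread between these samples.

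Reads counted on genes ranged from 11697049 to 16827147 per liver with a median of 14016976. Values per liver are CPM, the reads on a gene per fixed number of reads in its library, scaled by the TMM method over the 20 libraries. *Cideb* was 6.06 ± 1.12 CPM in WT livers against 0.155 ± 0.165 CPM in KO livers on WD (SD, n = 5 each), and 3.05 ± 0.653 CPM against 0.163 ± 0.154 CPM on CDA-HFD, with no overlap on either diet. The hepatocyte marker list summed to at least 6655 CPM in every liver. RNA came from whole liver, so a change in the number of cells of a type and a change in RNA per cell cannot be told apart. The KO liver numbered 5 on CDA-HFD stood apart from the other 4 of its group, with the highest summed macrophage markers (2057 CPM, against 626 to 830 CPM) and the lowest summed hepatocyte markers (10292 CPM). The members' and gene list results for KO against WT on CDA-HFD are therefore given with and without it. For lists of cell markers, calls are given with it only and summed CPM both ways. Without it, the KO livers on CDA-HFD summed to 11.4 to 16.0 CPM for neutrophil markers and to 16468 to 21680 CPM for hepatocyte markers.

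In the acute phase response, cytokines released at a site of injury make hepatocytes secrete a set of defense proteins into the blood. IL-6 signals through its receptor and *Il6st* to STAT3, and IL-1 and TNF act through NF-κB and C/EBP factors. In mice, *Saa1*, *Saa2*, the orosomucoids and *Apcs* are classical inducible genes, *Crp* responds weakly, and *Saa4* is largely constitutive. *Saa3* and *Lcn2* are also made outside hepatocytes, *Saa3* by macrophages among others and *Lcn2* by neutrophils.

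The start regions of the members whose levels differed most, or moved together, are shown to let the family be compared. All 4 *Saa* genes lie within chr7:46711998-46754313, *Orm1* and *Orm2* within chr4:63344560-63365878 and *Lcn2* at chr2:32384633-32388252 in GRCm38. Of the 10 members, 8 had a promoter entry in the RefSeq table for GRCm38.p6, and *Hp* and *Orm1* had none. Each line gives the 250 bases before the start site, 5′ to 3′ on the gene's strand, with matches to the searched motifs in capitals. The windows were chr7:46742981-46743230 (minus strand), chr7:46751583-46751832 (plus), chr7:46715677-46715926 (minus), chr7:46732604-46732853 (minus), chr4:63362199-63362448 (plus) and chr2:32387740-32387989 (minus), in the order printed. For *Saa2*, *Saa3* and *Lcn2* the RefSeq start lies inside the gene as GENCODE M21 draws it, so these windows include bases that GENCODE places within the gene.
Saa1: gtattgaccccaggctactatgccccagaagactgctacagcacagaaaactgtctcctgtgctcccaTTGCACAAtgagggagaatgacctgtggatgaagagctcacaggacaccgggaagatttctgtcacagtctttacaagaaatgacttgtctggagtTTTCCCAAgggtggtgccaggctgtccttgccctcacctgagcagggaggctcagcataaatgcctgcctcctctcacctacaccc
Saa2: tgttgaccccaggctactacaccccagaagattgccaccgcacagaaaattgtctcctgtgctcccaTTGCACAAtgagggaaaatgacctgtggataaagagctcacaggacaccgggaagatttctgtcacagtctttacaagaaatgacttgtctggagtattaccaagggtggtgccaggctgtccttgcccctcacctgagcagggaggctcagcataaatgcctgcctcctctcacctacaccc
Saa3: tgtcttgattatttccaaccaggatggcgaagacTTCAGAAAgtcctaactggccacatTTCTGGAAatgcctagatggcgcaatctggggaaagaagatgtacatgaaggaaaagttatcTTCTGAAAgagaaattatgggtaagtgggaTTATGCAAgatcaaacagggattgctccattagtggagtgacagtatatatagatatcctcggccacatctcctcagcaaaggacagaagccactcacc
Saa4: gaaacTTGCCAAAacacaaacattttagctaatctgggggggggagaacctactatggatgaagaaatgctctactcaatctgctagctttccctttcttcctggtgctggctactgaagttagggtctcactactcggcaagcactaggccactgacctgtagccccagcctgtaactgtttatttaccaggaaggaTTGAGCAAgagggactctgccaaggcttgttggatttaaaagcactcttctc
Orm2: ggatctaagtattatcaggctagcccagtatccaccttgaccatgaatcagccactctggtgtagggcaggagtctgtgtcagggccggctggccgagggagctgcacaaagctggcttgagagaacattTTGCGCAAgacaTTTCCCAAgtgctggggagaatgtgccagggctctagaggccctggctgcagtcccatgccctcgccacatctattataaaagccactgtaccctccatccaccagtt
Lcn2: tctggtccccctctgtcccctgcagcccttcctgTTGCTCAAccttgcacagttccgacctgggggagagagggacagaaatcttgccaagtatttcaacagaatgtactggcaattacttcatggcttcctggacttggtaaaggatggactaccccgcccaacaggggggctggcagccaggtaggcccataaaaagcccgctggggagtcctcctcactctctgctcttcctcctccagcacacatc

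A C/EBP motif (TTNNGNAA, either strand) was found in 7 of the 8 promoters, against 36.8% of 32851 mouse promoters of the same length. Every capital above marks such a match. *Saa3* held 4 matches, *Saa1*, *Saa4* and *Orm2* held 2 each, and *Saa2*, *Lcn2* and *Crp* held 1. A STAT motif (TTCNNNGAA) was found in *Apcs* alone and in 7.02% of all promoters, and an NF-κB motif (GGGNNTTTCC) in none of the 8 and in 1.41% of all. No matches of different motifs overlapped. The windows of *Saa1* and *Saa2* were identical at 94.8% of aligned positions, while the other pairs of *Saa* windows were identical at 43.8% to 48.5%. *Saa1* and *Saa2* were alike in their transcripts too. Of all 75-base stretches of *Saa1* transcripts, 18.5% also occurred in *Saa2*, and 13.8% of those of *Orm1* occurred in *Orm2*, so reads may be split or lost within these pairs. The stretches were pooled over all annotated transcripts, 2544 for *Saa1* and 701 for *Orm1*. The share within the main transcript alone may differ. For the other 6 members the share was at most 1.54%.

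On CDA-HFD, KO livers had less *Lcn2* and *Saa3* and more *Saa4* than WT livers. These 3 of the 10 genes passed the threshold of 0.05 on the adjusted p of edgeR's quasi-likelihood test, 2 lower and 1 higher. Among all 17204 genes tested, 7.29% were lower and 8.19% were higher in KO livers. Scaling by library size alone moved the median of all genes by -0.19 on the log2 scale and the share of higher calls from 52.9% to 30.3%, and the members are read against TMM throughout. Livers of WT and KO did not overlap for 2 members, *Lcn2* and *Orm2*, as they did not for 9.57% of all genes. The median log2 fold change was -0.50 over the members and 0.00499 over all genes. Without the KO liver numbered 5, 6 members passed (*Saa3*, *Saa4*, *Orm2*, *Lcn2*, *Crp* and *Apcs*) beside 41.4% of all genes. Without the WT liver 3, the WT liver 5 or the KO liver 1, *Lcn2* alone passed, beside 4.57%, 5.27% and 4.02% of all genes.

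**Figure D1:**
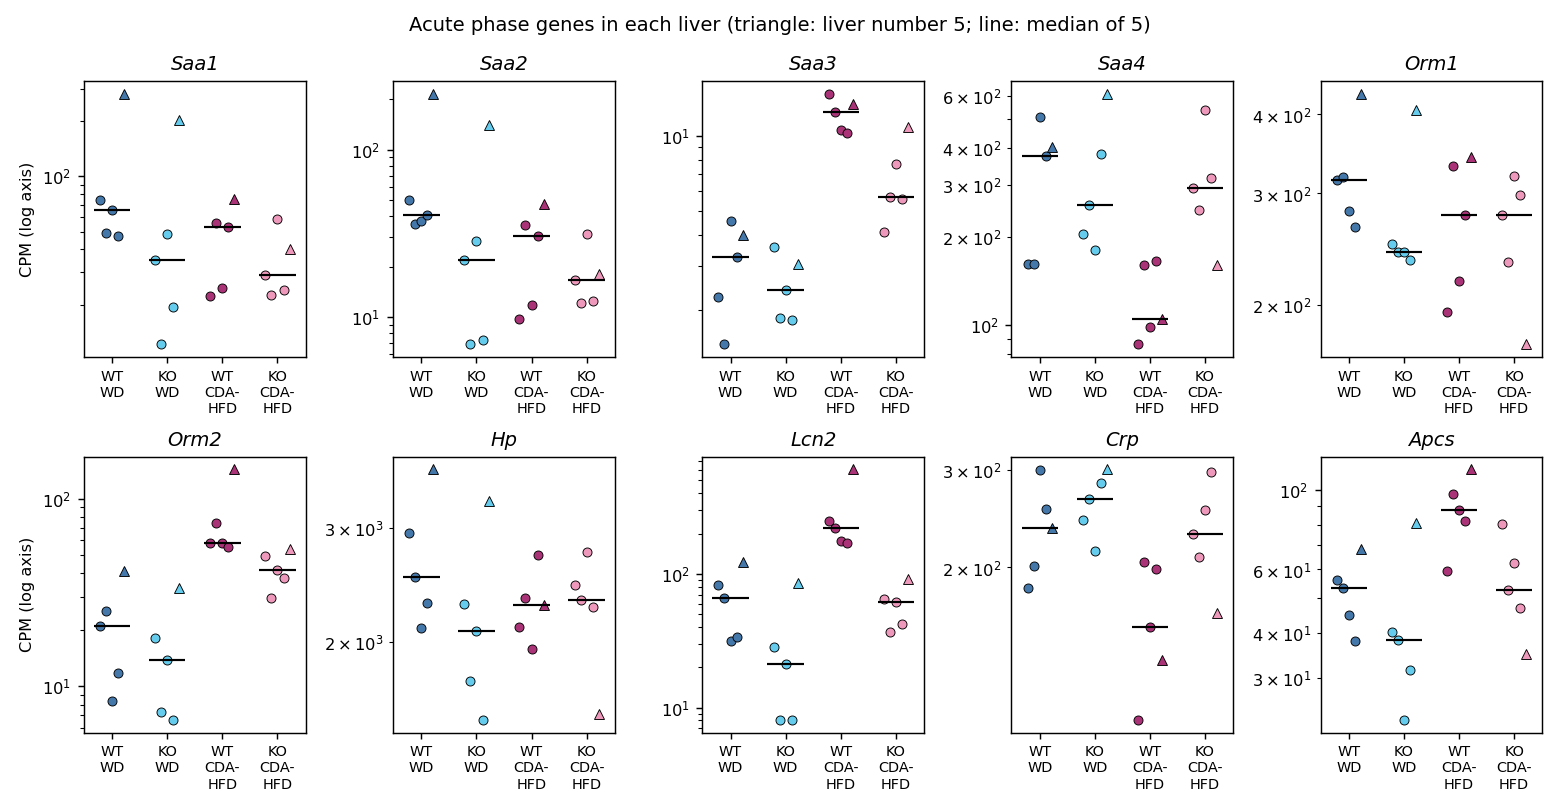
CPM of the 10 acute phase genes in each liver, on a log axis, for WT and KO livers on WD and CDA-HFD. Points are single livers, triangles are livers numbered 5 and lines are medians of 5 livers. *Lcn2* in WT livers on CDA-HFD (170.9 to 606 CPM) lay above all KO livers on that diet, and liver 5 was high for *Saa1* and *Saa2* on WD.

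*Lcn2* encodes a secreted protein that binds bacterial siderophores and so withholds iron. Its level in the WT livers 1 to 5 on CDA-HFD was 249.9, 219.7, 176.9, 170.9 and 606 CPM. In the KO livers it was 64.9, 36.8, 62.0, 42.3 and 92.1 CPM. Every WT liver was thus above every KO liver, and liver 5 was the highest of its group in both. KO livers were lower by a factor of 4.79 (log2 fold change -2.26 ± 0.39 SE, edgeR adjusted p = 0.0105, exact two-sided permutation p = 0.00794, the smallest that 5 against 5 livers allow). *Lcn2* passed with each of the 10 livers left out in turn, with log2 fold changes from -2.47 to -1.78.

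Neutrophil markers moved with *Lcn2*. Of the 10 markers listed, 9 were tested and 7 were lower in KO livers on CDA-HFD (*Camp*, *Csf3r*, *Cxcr2*, *Mmp9*, *Retnlg*, *S100a8* and *S100a9*). All 10 together summed to 38.9 to 118 CPM in WT livers against 11.4 to 29.2 CPM in KO livers, with the KO liver 5 highest of its group. None of the 10 was at 0 in all livers of a group, though the defining marker *Ly6g* averaged 0.0602 CPM in WT livers against 0.0240 CPM in KO livers. The highest *Lcn2* value, 606 CPM in WT liver 5, was found at 44.7 CPM of neutrophil markers, near the group median of 44.4 CPM. Macrophage markers were lower in KO livers for 4 of 10 genes (*Adgre1*, *Cd68*, *Csf1r* and *Trem2*), with sums of 1758 to 3647 CPM in WT livers against 626 to 2057 CPM in KO livers. Of 8 stellate cell markers *Acta2* alone was lower, and none of the 6 endothelial, 6 cholangiocyte and 6 lymphocyte markers passed. With the KO liver 5 set apart, some sums did not overlap. Stellate cell sums were 1734 to 2780 CPM in WT livers against 1099 to 1180 CPM in KO livers (liver 5: 2886 CPM). Cholangiocyte sums were 363 to 784 CPM against 68.6 to 171 CPM (liver 5: 650 CPM). Endothelial sums were 286 to 366 CPM against 432 to 468 CPM (liver 5: 259 CPM). Lymphocyte sums overlapped. The part of neutrophils or macrophages in the *Lcn2* and *Saa3* results was not tested.

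**Figure D2:**
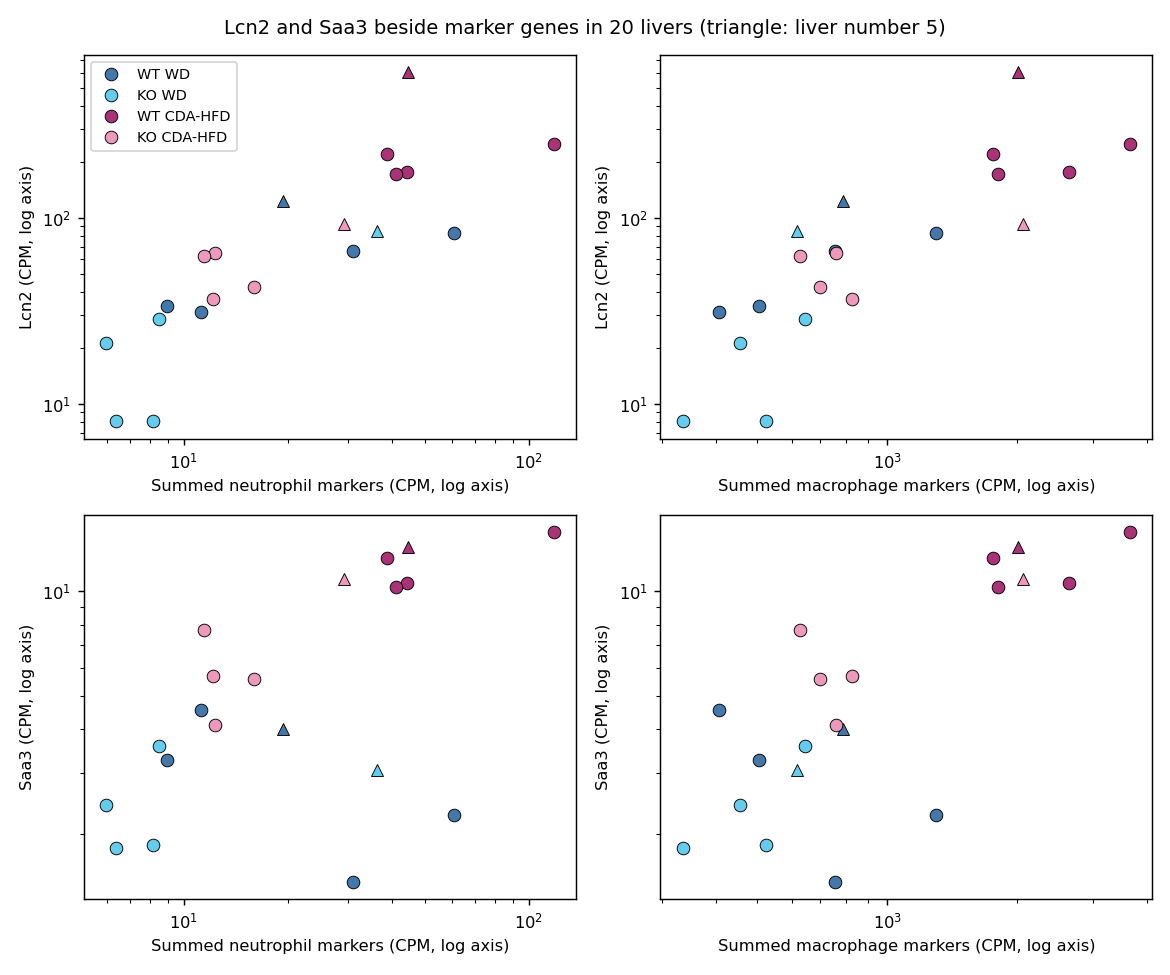
*Lcn2* (upper panels) and *Saa3* (lower panels) in CPM against the summed CPM of neutrophil or macrophage markers, all axes logarithmic, with 1 point per liver, colored by group, and triangles for livers numbered 5. WT livers on CDA-HFD sit at the upper right with 38.9 to 118 CPM of neutrophil markers, and the KO liver 5 on CDA-HFD lies between them and the rest of its group by neutrophil markers (29.2 CPM) and among them by macrophage markers (2057 CPM).

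Among the serum amyloid A genes, whose products travel on high density lipoproteins, *Saa3* and *Saa4* differed in opposite directions on CDA-HFD. *Saa3* was 14.7, 12.4, 10.55, 10.3 and 13.4 CPM in WT livers 1 to 5. It was 4.11, 5.70, 7.71, 5.59 and 10.8 CPM in KO livers 1 to 5. Liver 5 was the only KO liver to reach the WT range. *Saa3* was lower in KO livers by a factor of 1.81 (log2 fold change -0.86 ± 0.23 SE, edgeR adjusted p = 0.0324, exact permutation p = 0.0238). Without the KO liver 5 the factor was 2.12 (adjusted p = 0.00104), and in 8 of the 10 fits that left out 1 liver the adjusted p was above the threshold, up to 0.0808, the exceptions being those without the WT liver 4 or the KO liver 5. Scaled by library size alone its adjusted p was 0.0507.

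*Saa4*, the constitutive member of the family, went the other way. Its WT values on CDA-HFD were 86.0, 159.6, 98.2, 164.6 and 104.7 CPM, and its KO values were 292.1, 245.5, 537.7, 316.0 and 159.8 CPM. Liver 5 was here the lowest KO liver and the only one inside the WT range. *Saa4* was 2.52-fold higher in KO livers (log2 fold change 1.33 ± 0.31 SE, edgeR adjusted p = 0.0205, exact permutation p = 0.0159). Its adjusted p was 0.0575 without the WT liver 3, 0.0561 without the WT liver 5 and 0.0516 without the KO liver 1. On CDA-HFD 4 of 10 hepatocyte markers were also higher, with a median sum of 9973 CPM in WT livers against 17821 CPM in KO livers and the KO liver 5 lowest of its group for both, and their part in the *Saa4* and *Crp* values was not tested.

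*Saa1* and *Saa2*, the classical inducible members, did not pass. *Saa1* was 22.4 to 75.04 CPM in WT livers against 22.5 to 58.8 CPM in KO livers on CDA-HFD (log2 fold change -0.41 ± 0.37 SE, edgeR adjusted p = 0.444). *Saa2* was 9.66 to 47.4 CPM in WT livers against 12.2 to 31.2 CPM in KO livers (log2 fold change -0.58 ± 0.43 SE, edgeR adjusted p = 0.351). The groups overlapped almost entirely for both.

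*Orm2*, which encodes a plasma carrier of basic and lipid ligands, was 58.4, 74.1, 58.1, 55.4 and 143.7 CPM in WT livers 1 to 5 on CDA-HFD. In KO livers it was 49.8, 29.5, 42.0, 37.7 and 54.2 CPM. All 5 KO livers were below all 5 WT livers, by a narrow gap of 54.2 to 55.4 CPM. The difference narrowly missed the threshold (log2 fold change -0.88 ± 0.27 SE, edgeR adjusted p = 0.0517, exact permutation p = 0.00794), and it passed in DESeq2 (adjusted p = 0.0171) and without the KO liver 5 (edgeR adjusted p = 0.0173). It also passed with the replicate block (edgeR adjusted p = 0.0363). It did not pass in 8 of the 10 fits that left out 1 liver (adjusted p up to 0.119) or under library size only (0.0540). Without the WT liver 5 its log2 fold change was -0.53 (edgeR adjusted p = 0.0841). Its neighbor *Orm1* was 273 ± 65.9 CPM in WT livers against 260.3 ± 58.2 CPM in KO livers (SD, n = 5 each), with an edgeR adjusted p of 0.816.

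The remaining members are haptoglobin, which captures free hemoglobin, and the 2 short pentraxins, which bind damaged cells and bacteria. *Hp* was 2283 ± 291 CPM in WT livers against 2269 ± 446 CPM in KO livers on CDA-HFD (SD, n = 5 each), a log2 difference of -0.01 ± 0.18 SE. *Apcs* was 59.3 to 114.1 CPM in WT livers against 34.8 to 80.4 CPM in KO livers, overlapping in part. It had a log2 fold change of -0.67 ± 0.23 SE (edgeR adjusted p = 0.0643) and passed in DESeq2 (adjusted p = 0.0307) and without the KO liver 5 (edgeR adjusted p = 0.0444). *Apcs* also passed under library size only (0.0319), but not with the replicate block (0.117). In the other 9 of 10 fits that left out 1 liver it did not pass (adjusted p up to 0.149). *Crp* was 105.8 to 204.9 CPM in WT livers against 165.5 to 297.4 CPM in KO livers, where the lowest was liver 5. It had a log2 fold change of 0.52 ± 0.20 SE (edgeR adjusted p = 0.0965) and passed without the KO liver 5 (edgeR adjusted p = 0.0206). *Crp* did not pass in the other 9 of 10 such fits (adjusted p up to 0.195), and it passed in the fit of all 20 livers (edgeR adjusted p = 0.0403).

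On WD, none of the 10 genes passed for KO against WT livers in edgeR, none had an unadjusted p under 0.05, and DESeq2 called none, although it gave no adjusted p for *Saa1* and *Saa2*. Among all genes tested, 12 of 15848 (0.0757%) passed, and the 2 groups did not overlap for 2.22% of genes and for 0 members. The log2 fold changes of the members ran from -1.16 to 0.16 with adjusted p from 0.526 to 0.993, and 8 of 10 were negative. The largest difference was again that of *Lcn2*. Its WT values were 82.7, 66.6, 31.3, 33.6 and 123.7 CPM, and its KO values were 28.6, 8.09, 21.2, 8.05 and 85.1 CPM (log2 fold change -1.16 ± 0.61 SE, edgeR adjusted p = 0.526, exact permutation p = 0.0714). Liver 5 was the highest in both groups, and the KO liver 5 lay above 4 of the 5 WT livers. Without the KO liver 5 the factor was 4.17 (edgeR adjusted p = 0.158), against 2.24 with it. Summed neutrophil markers were 8.93 to 60.5 CPM in WT livers against 5.96 to 36.3 CPM in KO livers on WD.

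*Saa1* on WD was 74.1, 49.3, 65.8, 47.5 and 282.7 CPM in WT livers 1 to 5 and 35.1, 12.1, 48.7, 19.5 and 202.8 CPM in KO livers 1 to 5. Livers 1 to 4 were at or below 74.1 CPM in both groups, and liver 5 was far above them in both. The log2 fold change was -0.71 ± 0.73 SE with all livers, 0.11 without the WT liver 5 and -1.87 without the KO liver 5. *Saa2* behaved alike, with 216.6 CPM in the WT liver 5 and 140.6 CPM in the KO liver 5 against 36.1 to 49.8 CPM and 6.85 to 28.4 CPM in the other 4 livers of each group. Its log2 fold change was -0.89 ± 0.81 SE with all livers, 0.00205 without the WT liver 5 and -2.27 without the KO liver 5. With both livers numbered 5 left out the log2 fold change was -1.05 for *Saa1* (edgeR adjusted p = 0.401) and -1.37 for *Saa2* (edgeR adjusted p = 0.348).

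The members varied more between livers of 1 group than genes did in general. The median SD of log2 CPM over the 10 members was 0.702 in WT and 0.693 in KO livers on WD, against 0.234 and 0.258 over 17804 genes. On CDA-HFD it was 0.412 and 0.484 against 0.241 and 0.291. *Saa2* in KO livers on WD had the widest spread, with a ratio of 20.5 between the highest and lowest liver, and *Hp* in WT livers on CDA-HFD had a ratio of 1.40. The same liver was often the highest for several members. Liver 5 was the highest of its group for 7 of 10 members in WT and 9 of 10 in KO livers on WD, and for 6 of 10 in WT livers on CDA-HFD. In KO livers on CDA-HFD, liver 5 was the highest for *Saa3*, *Orm2* and *Lcn2* and the lowest for *Saa4*, *Orm1*, *Hp*, *Crp* and *Apcs*. The labels give no meaning to the number of a liver.

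**Figure D3:**
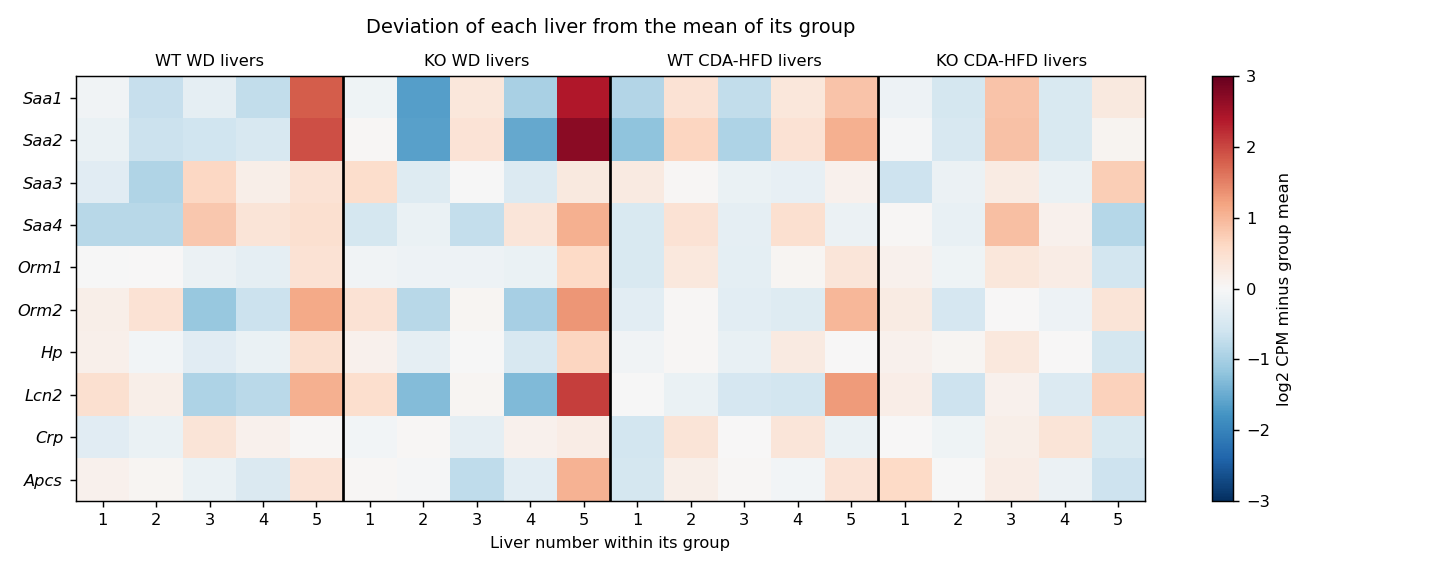
Log2 CPM of each member in each liver minus the mean of its group, with genes in rows, livers 1 to 5 of the 4 groups in columns, red above and blue below the mean. The column of liver 5 is red for most members in the first 3 groups and mixed in KO livers on CDA-HFD. Deviations ran from -1.65 to 2.71.

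Between diets, the members split by direction. In WT livers 4 were higher on CDA-HFD than on WD (*Saa3*, *Orm2*, *Lcn2* and *Apcs*) and 3 were lower (*Saa2*, *Saa4* and *Crp*), beside 25.9% and 25.2% of 16726 genes. Scaling by library size alone moved the median of all genes by 0.42 on the log2 scale and the share of higher calls from 50.7% to 85.3%, and *Saa2* and *Crp* did not pass under it. WT livers of the 2 diets did not overlap for 3 members (*Saa3*, *Orm2* and *Lcn2*) and for 37.1% of all genes. *Lcn2* was 4.18-fold higher on CDA-HFD (log2 fold change 2.06 ± 0.45 SE, edgeR adjusted p = 0.00249), with WD values from 31.3 to 123.7 CPM and CDA-HFD values from 170.9 to 606 CPM. *Saa3* was 3.89-fold higher (log2 fold change 1.96 ± 0.25 SE, edgeR adjusted p = 7.98e-05), with 1.46 to 4.54 CPM on WD and 10.3 to 14.7 CPM on CDA-HFD. *Orm2* was 3.59-fold higher (log2 fold change 1.85 ± 0.41 SE, edgeR adjusted p = 0.00273) and *Apcs* 1.68-fold higher (log2 fold change 0.75 ± 0.18 SE, edgeR adjusted p = 0.00521).

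*Saa4* was lower on CDA-HFD in WT livers by a factor of 2.64 (log2 fold change -1.40 ± 0.33 SE, edgeR adjusted p = 0.00417), with 161.3 to 509.4 CPM on WD and 86.0 to 164.6 CPM on CDA-HFD. *Crp* was lower by a factor of 1.47 (log2 fold change -0.56 ± 0.19 SE, edgeR adjusted p = 0.0269), and did not pass in 5 of 10 fits with 1 liver left out (WT livers 3 or 4 on WD, or 1, 3 or 5 on CDA-HFD, adjusted p up to 0.0658). *Saa2* was lower by a factor of 2.85 (log2 fold change -1.51 ± 0.59 SE, edgeR adjusted p = 0.0496), but the factor was 1.53 and the adjusted p 0.232 without the WT liver 5 on WD. It also did not pass without the WT liver 1, 2, 3 or 4 on CDA-HFD. With both livers numbered 5 left out, 5 members passed (*Saa3*, *Saa4*, *Orm2*, *Lcn2* and *Apcs*), beside 42.2% of all genes. Marker lists moved with diet too. On CDA-HFD, 4 of 9 neutrophil markers were higher, 5 of 10 macrophage markers were higher and 1 lower, and 8 of 10 hepatocyte markers were lower, and their part in the members' values was not tested.

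In KO livers 2 members were higher on CDA-HFD, *Saa3* (2.67-fold, log2 fold change 1.41 ± 0.29 SE, edgeR adjusted p = 0.00916) and *Orm2* (2.69-fold, log2 fold change 1.43 ± 0.39 SE, edgeR adjusted p = 0.0288). None was lower. Of 16387 genes tested, 9.19% were higher and 7.85% lower, and library size scaling moved the share of higher calls from 53.9% to 85.9%. The groups did not overlap for 1 member, *Saa3*, and for 15.2% of all genes. *Orm2* did not pass in 5 of the 10 fits that left out 1 liver (KO livers 1, 2, 3 or 4 on WD or KO liver 1 on CDA-HFD, adjusted p 0.0506 to 0.0613). *Saa4* was 327.0 ± 177.2 CPM on WD and 310.2 ± 140.4 CPM on CDA-HFD in KO livers (SD, n = 5 each), and its log2 fold change between diets was -0.09 ± 0.37 SE (edgeR adjusted p = 0.895). With both livers numbered 5 left out, *Lcn2* (adjusted p = 0.0191) and *Apcs* (adjusted p = 0.0195) passed as well, and without the KO liver 5 on WD alone *Lcn2* passed (adjusted p = 0.0221). Over all genes, 14.4% and 10.7% passed in these fits, in this order.

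Whether the KO difference itself changed with diet was tested by the interaction of vector and diet over all 20 livers. None of the 10 members passed in edgeR or DESeq2, beside 0.556% of 17804 genes, and 1 had an unadjusted p under 0.05. This was *Saa4* (log2 interaction 1.32 ± 0.53 SE, unadjusted p = 0.0223, edgeR adjusted p = 0.252). For *Lcn2* the interaction was -1.09 ± 0.77 SE (edgeR adjusted p = 0.515), and without the KO liver 5 on WD it was -0.21 (adjusted p = 0.905). Without the KO liver 5 on CDA-HFD, 0 members and 11.9% of 17995 genes passed, and the adjusted p of *Saa4* was 0.0647. A call on CDA-HFD and none on WD therefore does not show that the KO difference depended on diet. The comparisons share livers, so their fold changes are not independent of each other.

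**Figure D4:**
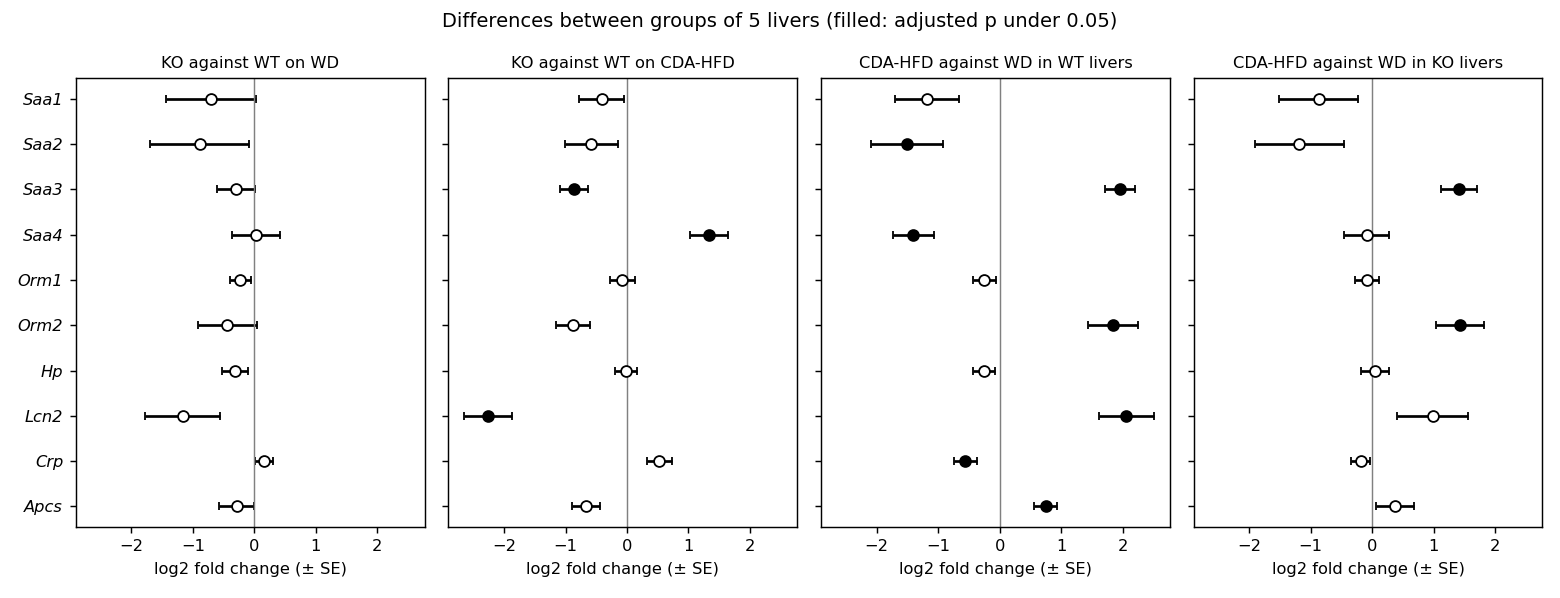
Log2 fold change with SE of each member in the 4 comparisons of 5 against 5 livers, with filled points for an edgeR adjusted p under 0.05. The panels hold 0, 3, 7 and 2 filled points, and *Saa3*, *Orm2*, *Lcn2* and *Apcs* lie left of 0 for KO against WT on CDA-HFD and right of 0 for CDA-HFD against WD in both vectors.

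Levels were compared between genes per kilobase of merged exons only. These lengths pool all annotated transcripts of a gene. For *Saa1* (2478 bases) and *Saa2* (2518 bases) they cover nearly the whole gene, against 775 bases for *Orm1*. The length may exceed that of the main transcript and so lower the value per kilobase. The order of genes below depends on these lengths. *Hp* was the highest member in all 4 groups, with group means of 1361 to 1689 CPM per kilobase. *Saa3* was the lowest, with group means of 0.979 CPM per kilobase in KO livers on WD to 4.71 CPM per kilobase in WT livers on CDA-HFD. *Orm1* was the second in every group (335.9 to 416 CPM per kilobase). In WT livers on WD it was followed by *Saa4*, *Crp*, *Apcs*, *Saa1*, *Saa2*, *Orm2* and *Lcn2*, from 154 to 25.8 CPM per kilobase, and the livers of neighbors in this stretch overlapped. In WT livers on CDA-HFD the next places were taken by *Lcn2* (109 CPM per kilobase), *Orm2* (100.5 CPM per kilobase) and *Apcs* (90.7 CPM per kilobase), whose livers overlapped with each other but not with those of *Orm1*.

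The cytokines that drive the response were looked at next, by lists in which no gene passed on WD. *Il6* was too low to test, with at most 2 reads in any liver. Of the other genes of the IL-6 family and its signal, 1 of 14 tested was higher in KO livers on CDA-HFD and 2 were lower. The receptor *Il6ra* rose from 63.8 ± 16.4 to 121 ± 30.9 CPM (log2 fold change 0.91 ± 0.21 SE, edgeR adjusted p = 0.0202). *Osmr*, the oncostatin M receptor, fell by 0.98 ± 0.23 SE on the log2 scale (edgeR adjusted p = 0.0208) and the kinase gene *Jak2* fell by 0.36 ± 0.11 SE (adjusted p = 0.0426). *Stat3* had a log2 fold change of 0.06 ± 0.09 SE, *Il6st* of -0.07 ± 0.10 SE, *Socs3* of 0.35 ± 0.16 SE, *Cebpb* of 0.19 ± 0.11 SE and *Cebpd* of -0.77 ± 0.41 SE, with adjusted p from 0.144 to 0.675 for these 5. *Cebpd* passed without the KO liver 5 (adjusted p = 0.00202). With 1 liver left out, *Il6ra* did not pass in 4 of 10 fits, *Osmr* in 5 and *Jak2* in 8. The number of genes of this list that passed was 8 without the KO liver 5 and 0 without the WT liver 3, the WT liver 5, the KO liver 1 or the KO liver 3. Over all genes, 41.4% passed without the KO liver 5 and 4.02% to 5.27% in the other fits named.

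In the IL-1, TNF and NF-κB list, 8 of 17 genes were lower in KO livers on CDA-HFD and 0 higher (*Il1a*, *Il1b*, *Nfkbia*, *Tlr2*, *Tlr4*, *Tnf*, *Tnfaip3* and *Tnfrsf1b*). With 1 liver left out the number that passed ran from 1 (without the WT liver 3, the WT liver 5, the KO liver 1 or the KO liver 3) to 12 (without the KO liver 5), and it was 3 to 5 without the WT liver 1 or 2 or the KO liver 2 or 4. The shares over all genes in these fits were 4.02% to 5.27%, 41.4%, and 5.65% to 11.6%. Over the whole list the median was -0.49 on the log2 scale. *Tnf* was 2.66 ± 0.243 CPM in WT livers against 1.17 ± 0.554 CPM in KO livers (SD, n = 5 each), with no overlap (log2 fold change -1.18 ± 0.28 SE, edgeR adjusted p = 0.0233). *Il1a* fell by 0.85 ± 0.17 SE (adjusted p = 0.0147), the endotoxin receptor *Tlr4* by 1.09 ± 0.25 SE (adjusted p = 0.0214), *Tlr2* by 0.86 ± 0.20 SE (adjusted p = 0.0228) and *Il1b* by 0.74 ± 0.21 SE (adjusted p = 0.0399). *Nfkbia*, the NF-κB inhibitor, fell by 0.37 ± 0.11 SE (adjusted p = 0.0491). *Il1a* passed with each of the 10 livers left out, while *Tnf* and *Tlr4* did not pass in 5 of these fits, *Tlr2* in 6, *Il1b* in 8 and *Nfkbia* in 9. In the fit of all 20 livers *Il1b* (edgeR adjusted p = 0.129) and *Tlr2* (0.0554) did not pass. These genes are expressed by macrophages and neutrophils. Of the markers tested, 4 of 10 for macrophages and 7 of 9 for neutrophils were lower in the same livers, while the macrophage receptor gene *Cd163* was higher. The part of those cells in the list was not tested.

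The transcription factors that bind acute phase promoters in liver went the other way, with 4 of 6 higher and 0 lower. Without the KO liver 5, 5 passed, beside 41.4% of all genes. *Foxa2* rose 3.06-fold (log2 fold change 1.61 ± 0.23 SE, edgeR adjusted p = 0.00733) and *Hnf4a* 1.79-fold (adjusted p = 0.0154), and *Cebpa* was also higher. Hepatocyte markers moved with them, with 4 of 10 higher (*Asgr1*, *Ass1*, *Hal* and *Hpd*) and sums of 6655 to 13957 CPM in WT livers against 10292 to 21680 CPM in KO livers. Their part in this result was not tested.

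Of 20 other positive acute phase genes tested, 1 was higher and 4 were lower in KO livers on CDA-HFD, with a median log2 fold change of 0.15. Without the KO liver 5, 5 passed beside 41.4% of all genes, and without the KO liver 1, 3 passed beside 4.02%. *Lbp*, the carrier of bacterial endotoxin, rose 1.33-fold (edgeR adjusted p = 0.0386), and did not pass in 6 of 10 fits with 1 liver left out. *Il1rn*, the natural IL-1 antagonist, fell by 1.18 ± 0.20 SE on the log2 scale (adjusted p = 0.0100), *Steap4* by 0.73 ± 0.13 SE (adjusted p = 0.0113) and *Fgl1* by 0.85 ± 0.18 SE (adjusted p = 0.0174), and *Cd14* was the fourth. *Serpina3n* (log2 fold change 0.30 ± 0.26 SE, adjusted p = 0.421) and *Lrg1* (0.12 ± 0.18 SE, adjusted p = 0.655), which encode inducible plasma proteins, did not pass. None of the 8 negative acute phase genes passed, with log2 fold changes of 0.64 ± 0.42 SE for *Alb* (adjusted p = 0.293) and 0.76 ± 0.33 SE for *Ttr* (adjusted p = 0.124). Without the KO liver 5, 3 of the 8 passed, near the share of 41.4% over all genes in that fit. *Ttr* was among them (0.96, adjusted p = 0.00999), and *Ttr* also passed in the fit of all 20 livers (adjusted p = 0.0424). In that fit 23.4% of all genes passed, and *Fgl1* did not (edgeR adjusted p = 0.121).

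Among receptors and partners of the members, 1 of 10 was higher and 4 were lower in KO livers on CDA-HFD. The number that passed was 6 without the KO liver 5, 3 without the KO liver 2 and 2 without the WT liver 1, 3 or 5 or the KO liver 1, 3 or 4. The shares over all genes in these fits were 41.4%, 5.65%, and 4.02% to 9.05%. *Cd163*, the macrophage receptor for haptoglobin bound to hemoglobin, was 0.855 ± 0.606 CPM in WT livers against 14.6 ± 9.30 CPM in KO livers on CDA-HFD (log2 fold change 4.14 ± 0.80 SE, edgeR adjusted p = 0.0137). The KO liver 5, at 0.600 CPM, was the lowest of its group and within the WT range of 0.285 to 1.69 CPM. *Hmox1*, which breaks down the heme that this receptor brings in, was lower without overlap, at 65.6 ± 8.58 CPM in WT livers against 28.2 ± 4.26 CPM in KO livers (log2 fold change -1.22 ± 0.12 SE, edgeR adjusted p = 0.00158). *Fpr2*, a receptor for serum amyloid A, fell by 1.02 ± 0.28 SE (adjusted p = 0.0359) and *Fcgr1*, an Fc receptor that binds pentraxins, by 0.85 ± 0.22 SE (adjusted p = 0.0316), and *Fcgr3* was the fourth. *Fpr2* and *Fcgr1* each did not pass in 7 of 10 fits with 1 liver left out, and *Fpr2* did not pass in the fit of all 20 livers (edgeR adjusted p = 0.101).

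**Figure D5:**
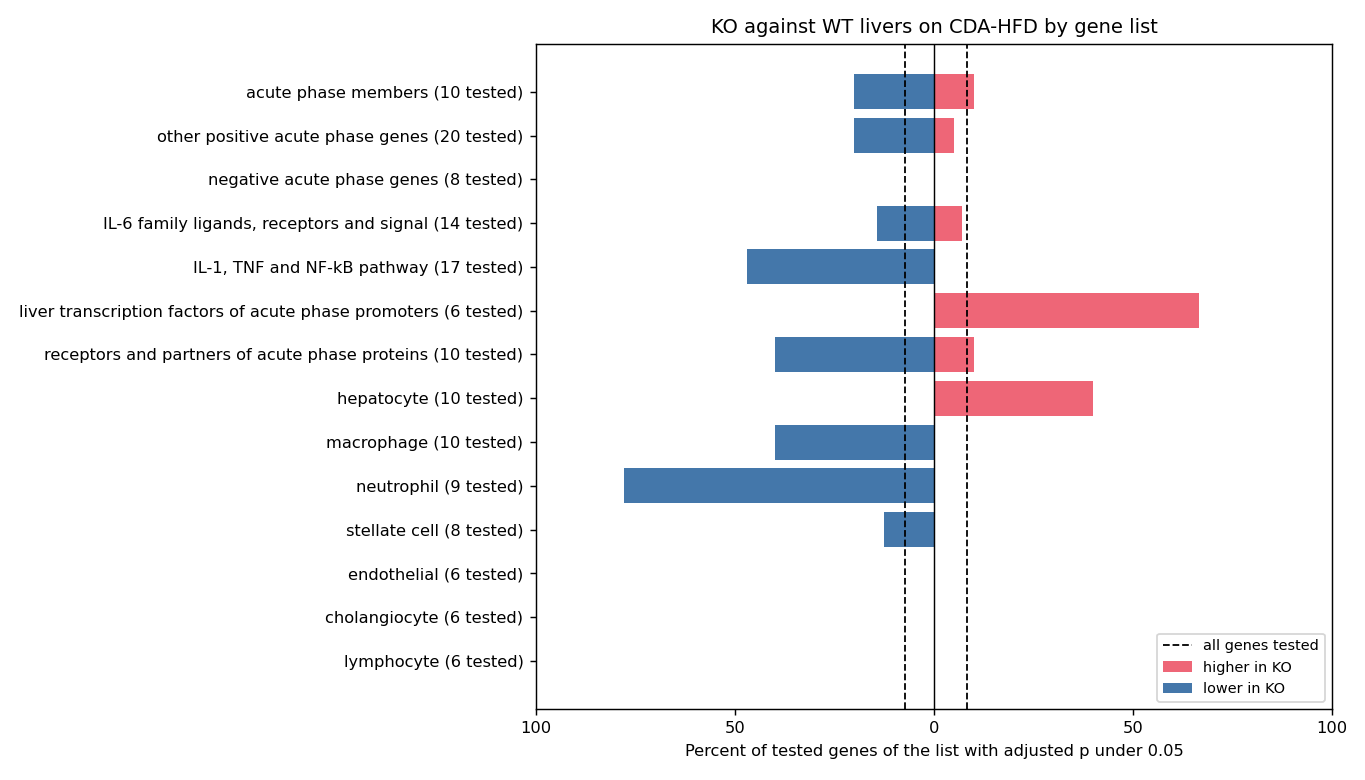
Percent of the tested genes of each list that were higher (right) or lower (left) in KO than in WT livers on CDA-HFD at an edgeR adjusted p under 0.05, with dashed lines at 8.19% and 7.29%, the shares over all genes. The IL-1, TNF and NF-κB list (8 of 17) and the neutrophil list (7 of 9) extend to the left, and the liver transcription factors (4 of 6) to the right.

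Between diets in WT livers, where 25.9% of all genes were higher on CDA-HFD and 25.2% lower, the same lists gave 9 of 17 genes of the IL-1, TNF and NF-κB list higher on CDA-HFD and 1 lower, and 6 of 14 IL-6 family genes higher and 2 lower. With 1 liver left out, the calls of the latter list numbered 4 without the WT liver 4 on WD and 5 without the WT liver 1 or 3 on WD or 3 or 5 on CDA-HFD. Over all genes, 44.8% to 50.9% passed in these fits. The liver transcription factors were lower for 5 of 6. The other positive acute phase genes were higher for 4 of 21 and lower for 8, the negative ones higher for 1 and lower for 4 of 8, and the receptors higher for 5 and lower for 2 of 10. In KO livers, where 9.19% of all genes were higher and 7.85% lower, 2 genes of the IL-1, TNF and NF-κB list were higher and 0 lower. When 1 liver was left out, 0 to 3 of this list were called, beside 9.37% to 17.4% of all genes. None of the 6 transcription factors passed, and 1 did without the KO liver 5 on CDA-HFD, beside 17.4% of all genes.

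The genes whose pattern over the 20 livers was nearest to a member were found by the mean absolute difference of log2 CPM, each gene centered on its own mean, among 12308 genes. For *Saa1* the nearest was *Saa2* (0.212), followed by *Gdf15* (0.537) and *Fgl1* (0.576), against a median of 0.842 over all candidates. For *Lcn2* these were *C5ar1* (0.526), *Lilrb4a* (0.546) and *Itgam* (0.562), against 1.25. For *Saa3* they were *Lrrc75a* (0.328), *Ednrb* (0.337) and *Gja1* (0.341), against 0.875, and for *Orm2* *Knl1* (0.463), *Ifi27l2a* (0.464) and *Vcan* (0.476), against 0.988. These are descriptions over livers of 4 groups, and the distances include the differences between the groups.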

How the data were processed

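RNA-seq of 20 mouse livers was analysed from 1 table of raw counts per gene deposited by the authors, with 5 unassigned entries that were left out (50.3% to 57.0% of reads per library). The genome build per the labels was mm10. The aligner, counter and strand setting are not given in the sources used here, and the labels and the study name different library kits. How reads shared by *Saa1* and *Saa2* or by *Orm1* and *Orm2* were counted is therefore unknown. Locations came from GENCODE M21.

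Libraries were scaled by TMM, genes were filtered by filterByExpr, and each comparison was fitted on its 10 livers (all 20 for the interaction) with edgeR 4.0.16 (quasi-likelihood F test, Benjamini-Hochberg adjustment over all genes tested, threshold 0.05) in R 4.3.3. Log2 CPM used a prior count of 2. Exact permutation tests were two-sided. DESeq2 1.42.0, other scalings and filters, the replicate block, a fit of all livers and leaving out each liver were alternatives, and leaving out livers numbered 5 was added after seeing the data. Fits were tested on simulated data. Figures were drawn with matplotlib 3.10.9.

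The members and gene lists were chosen with earlier results of these data known. The text names all members, *Cideb*, up to 3 called genes with the smallest adjusted p per list and KO comparison, and a fixed set of pathway genes. Members of marker lists and other called genes of short counts were named after their values were seen. The values of 1 gene of these lists are not reported here.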

Additional observations from a re-analysis of the deposited data

Results flagged for a closer look

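In 8 of the 40 sets of 5 livers (10 members in 4 groups), 1 liver lay far from the others, with a gap to the nearest liver that exceeded Dixon's 95% critical share of the range. For independent sets of normally distributed values about 2 in 40 would be expected. The values here were CPM without a log, the sets of a group hold the same 5 livers, and *Saa1* and *Saa2* moved together. The number 2 is therefore no chance base for these sets, and whether 8 exceeds chance was not tested. All 8 were the highest value of the set and all belonged to the liver numbered 5 of the group.

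On WD, *Saa1* in the WT liver 5 was 282.7 CPM against 47.5 to 74.1 CPM in the others (gap over range 0.887), and in the KO liver 5 it was 202.8 CPM against 12.1 to 48.7 CPM (0.808). *Saa2* was 216.6 CPM against 36.1 to 49.8 CPM in WT livers (0.924) and 140.6 CPM against 6.85 to 28.4 CPM in KO livers (0.839). *Orm1* in KO livers was 406.6 CPM against 235.1 to 249.4 CPM (0.916), and *Lcn2* in KO livers was 85.1 CPM against 8.05 to 28.6 CPM (0.733).

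On CDA-HFD, the WT liver 5 had 143.7 CPM of *Orm2* against 55.4 to 74.1 CPM (0.788) and 606 CPM of *Lcn2* against 170.9 to 249.9 CPM (0.818).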

How the results depend on the processing

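Of the 10 members, the number called for KO against WT on CDA-HFD was 5 with DESeq2 and 5 with livers numbered 5 left out. With 1 liver left out it was 1 to 6. The shares over all genes were 24.1%, 35.8% and 4.02% to 41.4%. For CDA-HFD against WD in KO livers, 4 members were called with livers numbered 5 left out, beside 14.4% of all genes. With 1 liver left out, 1 to 3 were called in KO livers, beside 9.37% to 17.4%. In WT livers 5 to 7 were called, beside 44.8% to 50.9%. No member was called under any alternative run for KO against WT on WD or for the interaction. The shares over all genes there were at most 1.03% and 11.9%. *Lcn2* kept its call for KO against WT on CDA-HFD under each alternative run.

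None of the values that reversed was a call, and the cause was not tested. Under library size only, log2 fold changes for KO against WT on CDA-HFD were -0.083 for *Lrg1* and -0.13 for *Stat3*, those for diet in WT livers were 0.16 for *Orm1* and 0.15 for *Hp*, those for diet in KO livers were 0.14 for *Saa4*, 0.14 for *Orm1* and 0.039 for *Crp*, and the interaction of *Orm1* was -0.022. With livers numbered 5 left out they were -0.24 for *Saa4* on WD, 0.13 for *Orm1* and 0.094 for *Hp* on CDA-HFD, 0.20 for *Saa1*, 0.16 for *Saa2*, 0.42 for *Saa4* and 0.20 for *Orm1* for diet in KO livers, and 0.11 for the interaction of *Apcs*. With 1 liver left out, values for KO against WT on WD ran from -1.87 to 0.11 for *Saa1*, -2.27 to 0.00205 for *Saa2* and -0.34 to 0.24 for *Saa4*. On CDA-HFD they ran from -0.18 to 0.043 for *Orm1* and -0.091 to 0.098 for *Hp*. For diet in KO livers they ran from -1.15 to 0.27 for *Saa1*, -1.48 to 0.17 for *Saa2*, -0.39 to 0.26 for *Saa4*, -0.18 to 0.093 for *Orm1* and -0.060 to 0.24 for *Hp*, and for the interaction from -0.51 to 1.44 for *Saa1*, -0.58 to 1.67 for *Saa2* and -0.81 to 0.046 for *Orm2*.

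Over all genes, calls for KO against WT on CDA-HFD numbered 2664, against 1709 under library size only, 4146 with DESeq2, 4170 with all livers in 1 fit, 6092 without livers numbered 5 and 709 to 7201 with 1 liver left out. On WD they numbered 12, against 8 under library size only, 164 with DESeq2, 38 without a filter, 26 with all livers in 1 fit, 2 with the replicate block and 1 without livers numbered 5. For diet in KO livers they numbered 2792, against 4476 with all livers in 1 fit. For the interaction they numbered 99, against 44, 434, 52, 63 and 1071 under library size only, DESeq2, no filter, the replicate block and without livers numbered 5, and 35 to 2138 with 1 liver left out (2138 without the KO liver 5 on CDA-HFD).

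Over all genes, livers with the same number did not deviate together throughout (r from -0.36 to 0.35), and 5 of 20 correlated best with their own number. Livers numbered 4 deviated together in each of the 4 comparisons (r from 0.20 to 0.35). The numbers were not taken as pairs. Among the members on WD, liver 5 was the highest for 7 of 10 in WT and 9 of 10 in KO livers. On CDA-HFD it was the highest for 6 of 10 in WT and 3 of 10 in KO livers. With the replicate block, KO against WT on WD was -1.03 ± 0.21 SE for *Saa1* (edgeR adjusted p = 0.216) and -1.35 ± 0.31 SE for *Saa2* (0.241). It was -1.49 ± 0.34 SE for *Lcn2* (0.236). Their SE without the block were 0.73, 0.81 and 0.61, while that of *Crp* was 0.14 both ways. With the replicate block, 4 members were called for KO against WT on CDA-HFD, 8 for diet in WT livers and 3 for diet in KO livers. The shares over all genes in these fits were 14.3%, 49.9% and 12.5%. None was called for KO against WT on WD or for the interaction, beside 0.0126% and 0.354% of all genes.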

Other observations

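*Orm3*, another orosomucoid gene that was looked at after its values were seen, was 26.8 ± 10.7 CPM in WT livers on WD and 5.42 ± 1.75 CPM on CDA-HFD (SD, n = 5 each), with no overlap (log2 fold change -2.31 ± 0.29 SE, edgeR adjusted p = 8.41e-05), while *Orm2* was higher on CDA-HFD. In KO livers *Orm3* was 19.2 ± 6.99 CPM on WD and 9.86 ± 4.47 CPM on CDA-HFD (SD, n = 5 each), with an edgeR adjusted p of 0.0822.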
